A study of Mus musculus with 11 samples.

Results

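The mitochondrial carriers encoded by the Slc25a genes were examined in 3T3-L1 adipocytes, fat cells made in culture from a mouse preadipocyte line. The members were all genes whose single symbol in the platform annotation begins with Slc25a, without Slc25a1 and Slc25a20, and each was represented by its brightest probe set. This gave 42 of 18193 genes on the array, carried by 90 probe sets.

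The study used 11 Affymetrix arrays to compare untreated adipocytes with models of hyperinsulinaemia, chronic inflammation and glucocorticoid-induced insulin resistance. Control cells (n = 3) are labelled as untreated. Chronic insulin cells (CI, n = 2) received 10 nM insulin in 4 additions, the last of them on the morning after the others. TNF cells (n = 3) were kept in 2 ng/ml of the inflammatory cytokine TNF for 4 days, and DEX cells (n = 3) in 20 nM dexamethasone, a synthetic glucocorticoid, for 8 days. Dexamethasone was carried in 0.01% ethanol, and whether the control arrays come from cells given that carrier is not stated. The treatments therefore differ in length as well as in agent, and all cells had the same age after differentiation at harvest. The source label reads adipose tissue, while the protocols describe this cultured line. The arrays of a group are numbered as replicates and are not said to come from separate cultures, so a p-value here reflects the scatter among these arrays alone, and that scatter could be technical.

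Carriers of this family span the inner mitochondrial membrane and exchange small molecules between the cytosol and the matrix. They bring in phosphate and ADP for ATP synthesis and release ATP, and they move dicarboxylates, amino acids, nucleotides, cofactors and iron. In fat cells they link glycolysis, amino acid breakdown and fatty acid synthesis to the tricarboxylic acid cycle. The carriers are encoded in the nucleus and are threaded into the inner membrane by dedicated translocases.

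Promoter sequences are shown for 5 members, chosen because their transcripts either passed the test against control under every treatment (Slc25a15, Slc25a25 and Slc25a29) or were higher under both TNF and dexamethasone (Slc25a12 and Slc25a24). Each is the 250 bases before the transcription start in RefSeq (build GRCm38.p6), written 5′ to 3′ on the strand of the gene. Slc25a25 has 3 starts in the table, of which the outermost and the one with a cAMP response element are shown, and Slc25a15 has 2, of which the outermost is shown. Capitals mark exact matches, on either strand, to the motifs named after the sequences.
Slc25a12 (chr2:71367756-71368005, minus strand): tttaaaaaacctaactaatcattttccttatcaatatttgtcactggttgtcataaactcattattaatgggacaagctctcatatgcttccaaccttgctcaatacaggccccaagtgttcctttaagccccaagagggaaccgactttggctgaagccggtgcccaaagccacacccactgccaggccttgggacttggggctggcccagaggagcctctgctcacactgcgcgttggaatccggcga
Slc25a24 (chr3:109122899-109123148, plus strand): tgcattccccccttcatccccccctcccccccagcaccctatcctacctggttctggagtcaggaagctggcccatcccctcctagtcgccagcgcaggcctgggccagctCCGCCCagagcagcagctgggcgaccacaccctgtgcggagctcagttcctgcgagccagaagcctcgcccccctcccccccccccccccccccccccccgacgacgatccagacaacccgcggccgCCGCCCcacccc
Slc25a15 (chr8:22398622-22398871, minus strand): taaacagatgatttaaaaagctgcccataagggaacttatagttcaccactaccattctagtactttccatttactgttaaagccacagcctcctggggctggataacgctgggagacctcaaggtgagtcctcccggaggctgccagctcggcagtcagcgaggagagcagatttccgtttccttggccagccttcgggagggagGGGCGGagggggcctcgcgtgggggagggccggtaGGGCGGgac
Slc25a25, outermost start (chr2:32451471-32451720, minus strand): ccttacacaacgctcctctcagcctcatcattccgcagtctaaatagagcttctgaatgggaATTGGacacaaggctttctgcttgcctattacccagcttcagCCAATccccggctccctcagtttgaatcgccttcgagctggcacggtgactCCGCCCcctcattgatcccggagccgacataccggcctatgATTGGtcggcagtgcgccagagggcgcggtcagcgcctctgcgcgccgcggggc
Slc25a25, inner start (chr2:32424067-32424316, minus strand): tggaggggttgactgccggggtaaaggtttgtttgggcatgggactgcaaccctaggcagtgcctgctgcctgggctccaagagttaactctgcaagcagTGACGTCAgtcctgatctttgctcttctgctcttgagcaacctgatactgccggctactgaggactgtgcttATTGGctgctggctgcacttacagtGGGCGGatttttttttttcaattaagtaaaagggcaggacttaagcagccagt
Slc25a29 (chr12:108835877-108836126, minus strand): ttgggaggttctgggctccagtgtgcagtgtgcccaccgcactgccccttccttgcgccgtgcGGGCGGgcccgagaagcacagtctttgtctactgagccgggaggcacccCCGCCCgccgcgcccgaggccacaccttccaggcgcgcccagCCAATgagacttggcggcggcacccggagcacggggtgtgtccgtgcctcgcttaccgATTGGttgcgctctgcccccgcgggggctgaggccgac
The motifs searched were the glucocorticoid receptor half-site AGAACA, the oestrogen-related receptor half-site AAGGTCA, the cAMP response element TGACGTCA, the E-box CACGTG, the CCAAT box (CCAAT) and the GC box (GGGCGG), besides an exact version each of the NF-kappaB site and of the NRF1 site. No matches overlapped in the printed windows. RefSeq starts were matched for 32 of the 42 members (41 windows).

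The windows of Slc25a24, Slc25a15, Slc25a29 and both shown starts of Slc25a25 held the GC box, which stood in 30 of 41 member windows (73.2%) and in 32.7% of all 32851 windows of this length. The CCAAT box, present in Slc25a25 and Slc25a29, stood in 46.3% of the member windows and 33.8% of all. TGACGTCA lay 150 bases before the inner start of Slc25a25 and was otherwise found in 1 member, Slc25a36; 1.55% of all windows held it. No printed window held AGAACA, which stood in 16.1% of all windows and in those of Slc25a17, Slc25a31 and Slc25a45 among the members. The E-box stood in 17.1% of member windows and 6.02% of all, in those of Slc25a15 only at the start not shown, and AAGGTCA in 1 member window, of Slc25a34, and 4.08% of all. The NF-kappaB and NRF1 letters were in 0 member windows and in 0.14% and 0.782% of all. The window of Slc25a12 held none of the letters searched. The median share of G and C was 58% in the member windows and 52.4% in all windows, and its part in these shares was not tested. These matches describe the sequence alone.

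Levels are given as the deposited linear intensities of a probe set, which can be compared between arrays for one gene and not between genes. Differences are log2 fold changes on the scale log2(intensity + 16), with their standard error (SE), and a gene passed at an adjusted p under 0.05 (limma, Benjamini-Hochberg over 15623 tested genes). Genes with a mean intensity under 51.74 were not tested, which removed 4 members: Slc25a2, Slc25a31, Slc25a41 and Slc25a54, an ornithine carrier, the testis form of the ADP/ATP carrier, an ATP-Mg/phosphate carrier and an uncharacterised member. Slc25a31 lay at 10.15 to 12.35 on all arrays and the other 3 between 26.57 and 51.38. The remaining 38 members were tested.

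Array medians were 124.5 to 129.5, and arrays of a group correlated with Spearman coefficients of 0.996 to 0.9977. Adipocyte genes were bright in every group: Adipoq averaged 22830 in control and Fabp4 22630, near the highest intensity on the arrays (25930). Of 10 macrophage and leukocyte markers Ptprc and Itgam were too dim to be tested, while Lyz2 averaged 2325 in control; of the 8 tested, 1 rose and 2 fell in CI, 2 rose and 1 fell in TNF and 1 rose and 2 fell in DEX. That list summed to 4836 to 5041 in control, 4153 to 4436 in CI, 6113 to 6563 in TNF and 3654 to 4205 in DEX. Of 7 brown fat markers tested 0 rose and 1 fell in CI, 0 rose and 2 fell in TNF and 2 rose and 1 fell in DEX, and the list summed to 1164 to 1239 in control, 1098 to 1162 in CI, 998.7 to 1065 in TNF and 1183 to 1381 in DEX. Of 8 adipocyte markers tested 1 rose in CI, 4 fell in TNF and 1 rose and 3 fell in DEX, and of 9 preadipocyte and fibroblast markers 4 rose in TNF while 5 fell in CI and 5 in DEX (2 rose in DEX). The summed intensity of those 9 markers was 55600 to 62250 in control, 49500 to 51890 in CI, 62750 to 65950 in TNF and 39220 to 45100 in DEX. The 8 adipocyte markers summed to 106800 to 107100 in control, 106900 to 107200 in CI, 88880 to 89840 in TNF and 102000 to 107500 in DEX. Their part in the differences of the carriers was not tested, and in cultures measured whole, fewer cells of a type and less RNA per cell cannot be told apart.

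The largest number of decreases among the carriers was in TNF. In TNF against control 17 of the 38 tested members passed (44.7%, where 25.2% of all tested genes did), of which 14 fell (36.8%, against 11.2% of all) and 3 rose (7.89%, against 13.9% of all). The median log2 fold change of the members was -0.12, and that of all tested genes -0.01. In CI 10 members passed (26.3%, against 17.3% of all): 7 rose (18.4%, against 8.38% of all) and 3 fell (7.89%, against 8.88%), with a median of 0.04 where all genes had 0.01. In DEX 16 passed (42.1%, against 27.6% of all): 9 rose (23.7%, against 14% of all) and 7 fell (18.4%, against 13.6%), with a median of 0.08 beside 0.02. The share that fell in TNF stood furthest from its background, and the share that fell in CI lay close to its own. These shares are descriptions of the members and carry no test of their own, and the comparisons with control share the control arrays. Without CI replicate 1 the number that passed in CI was 4 in place of 10, and the share of all tested genes that passed was 9.17% in place of 17.3%; 4 of 38 is 10.5%, near that share.

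**Figure D1:**
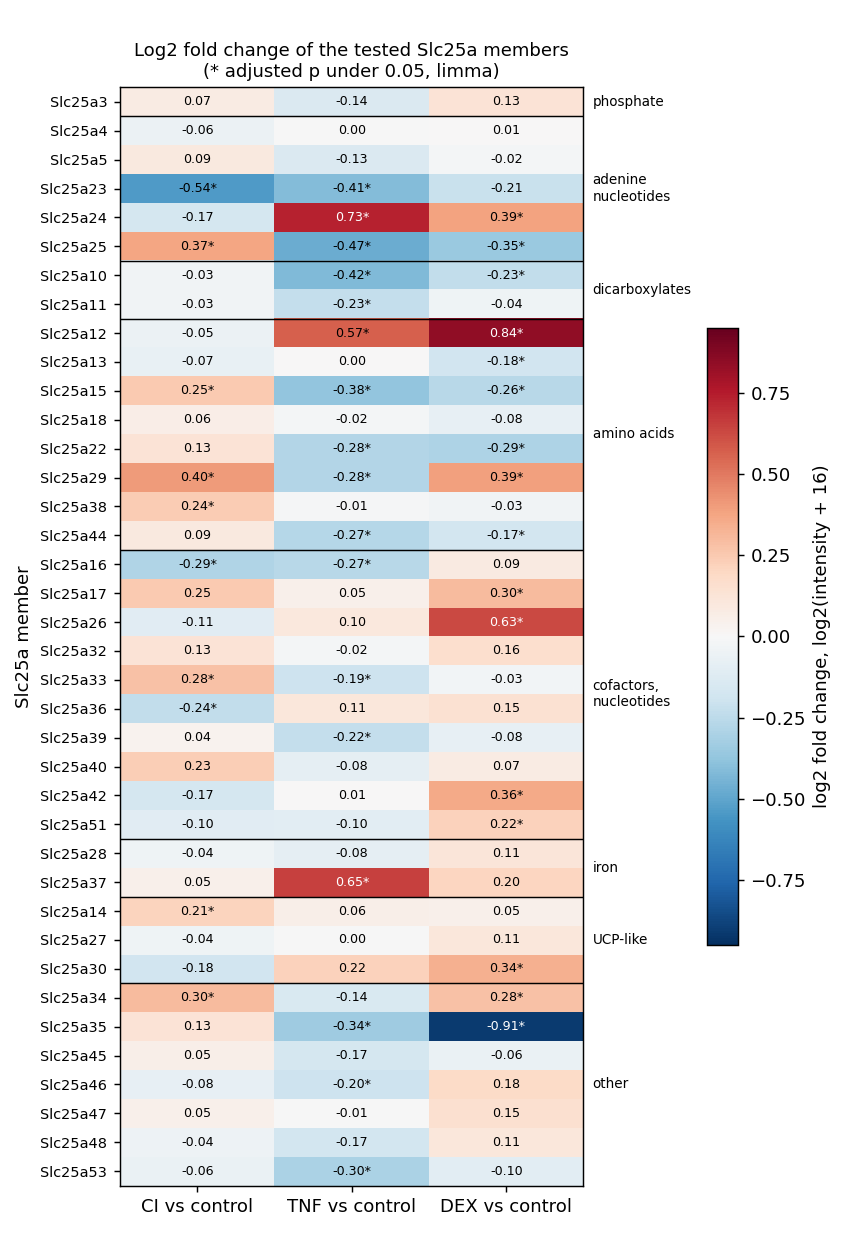
Log2 fold change against control (colour and number) of the 38 tested Slc25a members, in rows grouped by what they carry, under chronic insulin (CI), TNF and dexamethasone (DEX); a star marks an adjusted p under 0.05 (limma). Slc25a12 and Slc25a24 are red under TNF and DEX, Slc25a35 is the deepest blue under DEX (-0.91), and the blue cells are most numerous in the TNF column.

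**Figure D2:**
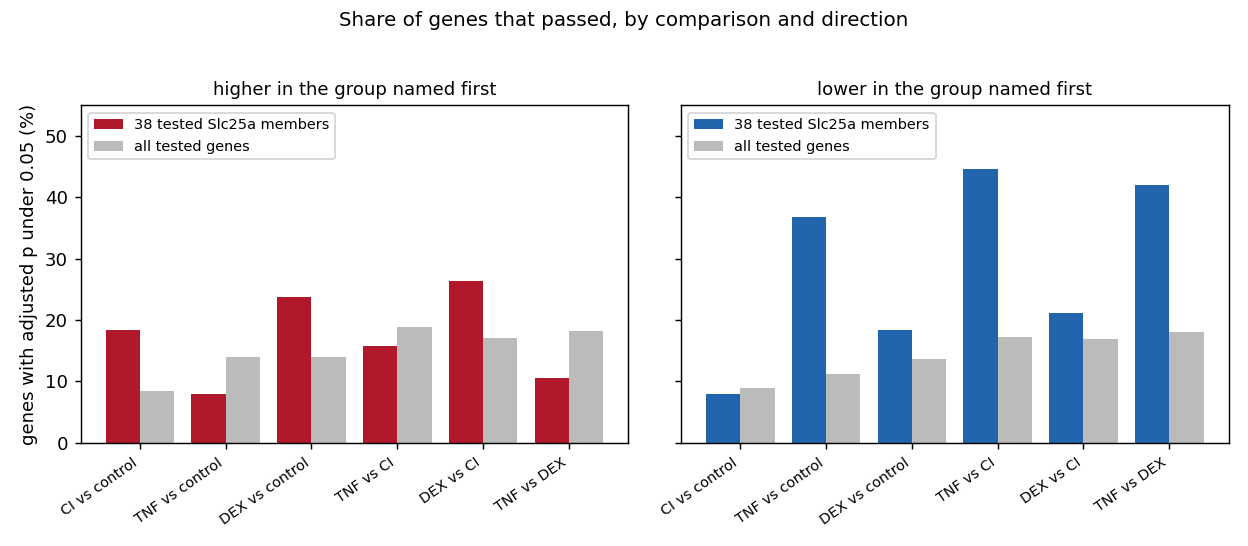
Bars give the percentage of the 38 tested Slc25a members and of all tested genes with an adjusted p under 0.05, for 6 comparisons, split by whether the gene was higher or lower in the group named first. The members' bars exceed the grey bars most in the lower direction of the comparisons that set TNF against control, CI or DEX (36.8%, 44.7% and 42.1%).

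The carriers that serve ATP synthesis most directly passed in no comparison with control on their brightest probe sets. Slc25a3, which imports phosphate, lay at 9090, 9025 and 9180 in control, 9910 and 9265 in CI, 8329, 8048 and 8408 in TNF and 9881, 9992 and 10010 in DEX. All TNF arrays were below and all DEX arrays above the control arrays, but neither difference passed (-0.14, adjusted p = 0.0525, and 0.13, adjusted p = 0.0638, limma). Set directly against each other, TNF was lower than DEX by 0.27 on the log2 scale (TNF minus DEX -0.27, SE 0.0495, adjusted p = 0.000571). Slc25a4, the ADP/ATP carrier of muscle and heart that is also made in fat, averaged 8787 ± 41.2 (SD, n = 3) in control, 8438 ± 50.5 (n = 2) in CI, 8780 ± 103 (n = 3) in TNF and 8828 ± 164 (n = 3) in DEX. Its log2 difference from control had a 95% interval of -0.171 to 0.054 in CI, -0.102 to 0.099 in TNF and -0.094 to 0.107 in DEX. Slc25a5, the broadly expressed ADP/ATP carrier, averaged 13190 ± 360 in control, 14090 ± 458 in CI, 12010 ± 381 in TNF and 13010 ± 378 in DEX, and passed in no comparison with control (adjusted p = 0.072 in TNF). Intervals for Slc25a5 were -0.029 to 0.219 in CI, -0.246 to -0.024 in TNF before adjustment for multiple tests, and -0.131 to 0.091 in DEX. Among the 8 probe sets of Slc25a5, 2 dimmer ones passed in TNF in the fit of all probe sets (-0.14, adjusted p = 0.0458, and -0.16, adjusted p = 0.0262). Another, at a mean intensity of 3507, passed in DEX (0.16, adjusted p = 0.0397) and not in TNF (-0.12, adjusted p = 0.119). The probe sets used for Slc25a4 and Slc25a5 are of a type (suffix _x_at) that can bind related transcripts. In those probe sets, any signal shared between these related genes cannot be separated. Probe sets of Slc25a4 without that suffix, at mean intensities of 8680 and 8337, gave 0.05 and -0.02 in TNF and 0.05 and 0.13 in DEX. None of these passed.

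The tested ATP-Mg/phosphate carriers Slc25a23, Slc25a24 and Slc25a25, which change the adenine nucleotide content of the matrix and are opened by calcium, moved in different directions. Slc25a24 lay at 1220, 1153 and 1121 in control, 1074 and 997.6 in CI, 1991, 1912 and 1933 in TNF and 1538, 1522 and 1516 in DEX. Every TNF array was above every DEX array, and these above every control array. It rose by 0.73 in TNF (SE 0.053, adjusted p = 1.39e-07) and by 0.39 in DEX (SE 0.053, adjusted p = 5.23e-05), and TNF exceeded DEX by 0.35 (adjusted p = 0.000108). In CI it was at -0.17 and did not pass (adjusted p = 0.0675). Its second, dimmer probe set gave 0.53 in TNF (adjusted p = 0.0306 over all probe sets) and 0.19 in DEX, which did not pass.

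Slc25a25 went the other way: 736.5, 662.1 and 718.4 in control, 845.8 and 998.1 in CI, 499.7, 538.4 and 474.2 in TNF and 561.5, 505.5 and 583.7 in DEX. The CI arrays lay above all control arrays, and the TNF and DEX arrays below them. It rose by 0.37 in CI (SE 0.0841, adjusted p = 0.00646) and fell in TNF (-0.47, SE 0.0752, adjusted p = 0.000288) and in DEX (-0.35, SE 0.0752, adjusted p = 0.00248). Between treatments, TNF was 0.85 below CI on the log2 scale (TNF minus CI -0.85, SE 0.0841, adjusted p = 1.87e-06) and DEX 0.73 below CI (DEX minus CI -0.73), while TNF and DEX did not differ beyond the threshold (adjusted p = 0.22). The rise in CI did not pass without CI replicate 2 (0.26, adjusted p = 0.109) or when its 3 probe sets were averaged (0.14, adjusted p = 0.106); averaged in this way, TNF gave -0.21 and DEX -0.22, both passing. The second probe set, at a mean intensity of 435.2, gave -0.003 in CI, -0.04 in TNF and -0.04 in DEX, none passing. The third, at 75.93, gave 0.06 in CI, -0.12 in TNF and -0.27 in DEX, of which DEX passed over all probe sets (adjusted p = 0.0462). The probe sets of Slc25a25 therefore disagree in CI and TNF, and in DEX the second differs from the other two.

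Slc25a23, another ATP-Mg/phosphate carrier, lay at 260.5, 207.9 and 210.1 in control, 130.4 and 171.3 in CI, 172.8, 173.9 and 149.3 in TNF and 199, 175.4 and 204.6 in DEX. All treated arrays were below all control arrays. It fell by 0.54 in CI (SE 0.112, adjusted p = 0.00375) and by 0.41 in TNF (SE 0.0998, adjusted p = 0.00707), and stood at -0.21 in DEX (adjusted p = 0.141). Without CI replicate 1, the lower of the CI arrays, the CI difference was -0.36 (adjusted p = 0.0886).

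**Figure D3:**
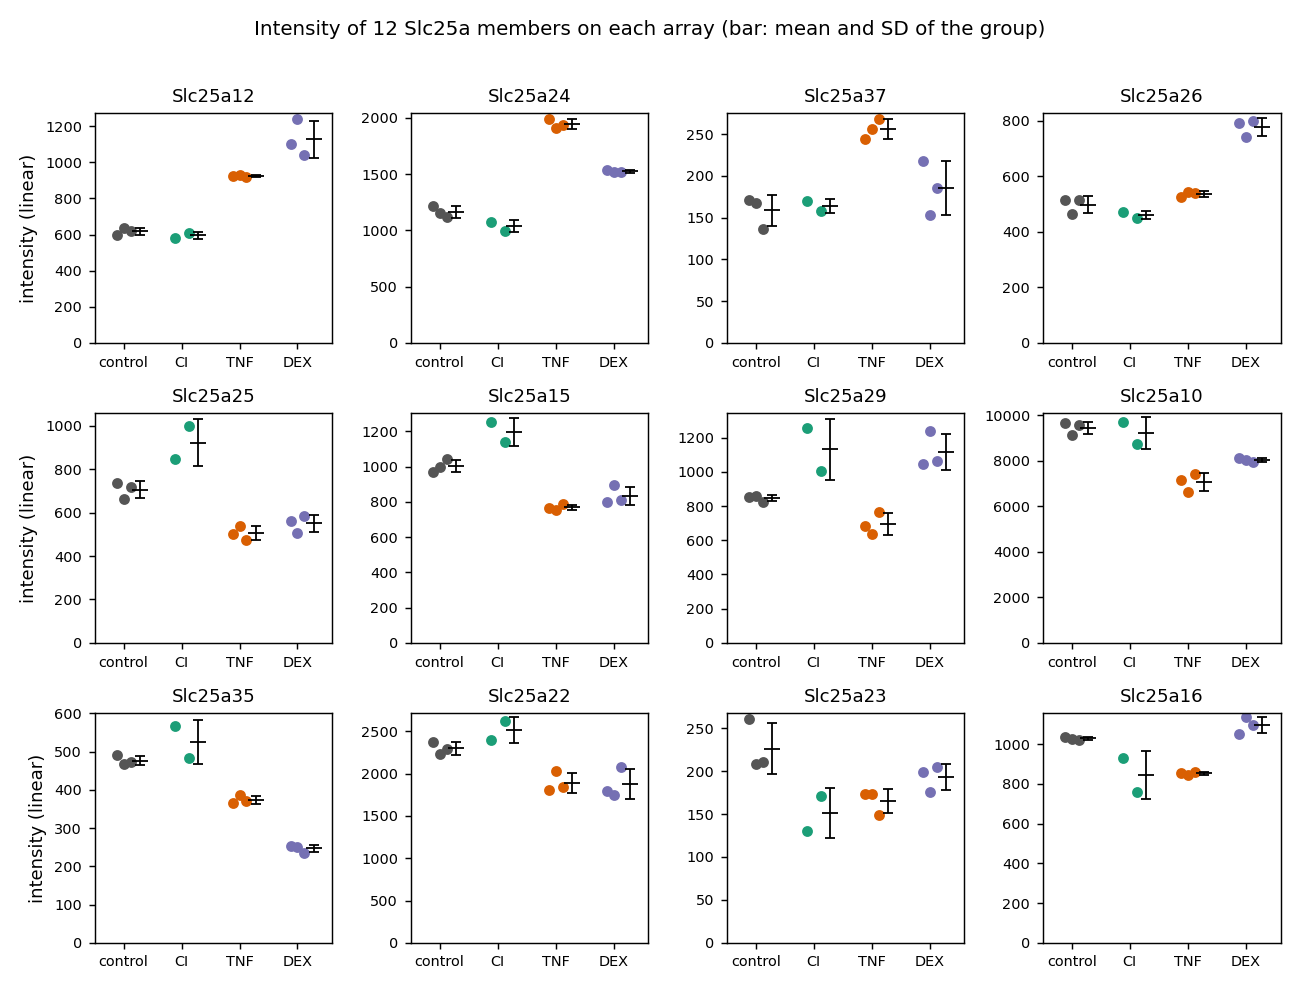
Each dot is the linear intensity of 1 array for 12 Slc25a members in control, CI, TNF and DEX cells, with the mean and SD of the group beside it; every axis starts at 0. TNF and DEX dots stand above control for Slc25a12 and Slc25a24 and below it for Slc25a25, Slc25a15, Slc25a10, Slc25a35 and Slc25a22, while Slc25a29 is high in CI and DEX and low in TNF.

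The dicarboxylate carriers fell in TNF. Slc25a10 exchanges malate and succinate for phosphate and is abundant in white fat. Its intensity was 9639, 9126 and 9551 in control, 9715 and 8736 in CI, 7147, 6621 and 7422 in TNF and 8126, 8046 and 7949 in DEX. The TNF arrays were the lowest, the DEX arrays lay between them and control, and the CI arrays overlapped control. In TNF its mean fell by 25.2%, a log2 fold change of -0.42 (SE 0.0589, adjusted p = 9.95e-05). In DEX it fell by 0.23 (SE 0.0589, adjusted p = 0.00836), and TNF was below DEX (TNF minus DEX -0.19, adjusted p = 0.0219). The second probe set gave -0.50 and -0.24, both passing. Slc25a11, the oxoglutarate/malate carrier of the malate-aspartate shuttle, fell in TNF (-0.23, adjusted p = 0.0048), from 1915 ± 54.2 to 1633 ± 55.6. In CI (-0.03) and DEX (-0.04) it did not pass.

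The aspartate/glutamate carriers, the other transporters of the malate-aspartate shuttle, which passes reducing equivalents from cytosolic NADH to the matrix, did not follow Slc25a11. Slc25a12 was measured at 599.3, 638.3 and 620.3 in control, 582.9 and 610.3 in CI, 926.1, 930.9 and 916.1 in TNF and 1099, 1238 and 1042 in DEX. Every DEX array exceeded every TNF array, and every TNF array exceeded every control array. It rose by 0.57 in TNF (SE 0.0619, adjusted p = 9.57e-06) and by 0.84 in DEX (SE 0.0619, adjusted p = 6.8e-08), the highest value of any member in DEX, and DEX exceeded TNF (TNF minus DEX -0.28, adjusted p = 0.00275). The CI arrays overlapped control (-0.05, adjusted p = 0.683). The 2 other probe sets of Slc25a12, at mean intensities of 146.2 and 95.58, did not show this: they gave -0.01 and -0.05 in TNF and 0.11 and -0.04 in DEX, none passing. Averaged over its 3 probe sets the gene still passed in TNF (0.17, adjusted p = 0.0153) and in DEX (0.30, adjusted p = 0.000273).

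Slc25a13, the liver-type aspartate/glutamate carrier, was dimmer, at 154.9 ± 4.48 in control and 134.6 ± 6.96 in DEX. It fell in DEX (-0.18, SE 0.0543, adjusted p = 0.0202), opposite to Slc25a12, and stood at 0.00 in TNF and -0.07 in CI. The call was lost without control replicate 3 (adjusted p = 0.0805), DEX replicate 2 (0.0515) or DEX replicate 3 (0.0783).

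The glutamate carrier Slc25a22, which imports glutamate together with a proton, lay at 2380, 2227 and 2287 in control, 2402 and 2621 in CI, 1801, 2028 and 1840 in TNF and 1797, 1752 and 2081 in DEX. The TNF and DEX arrays were all below control and intermingled with each other. It fell in TNF (-0.28, SE 0.071, adjusted p = 0.0093) and in DEX (-0.29, SE 0.071, adjusted p = 0.00578), and was at 0.13 in CI (adjusted p = 0.329). The second glutamate carrier, Slc25a18, was dim (134.9 ± 3.57 in control) and ran from -0.08 to 0.06 in the 3 comparisons, none passing.

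Slc25a15, the ornithine/citrulline carrier of the urea cycle, lay at 969.7, 996.9 and 1040 in control, 1253 and 1141 in CI, 766.2, 753.7 and 785.1 in TNF and 797.4, 894.6 and 809.9 in DEX. Like Slc25a25 it was above control in CI and below it in TNF and DEX, with no overlap. It rose by 0.25 in CI (SE 0.0665, adjusted p = 0.0166), fell by 0.38 in TNF (SE 0.0594, adjusted p = 0.000275) and fell by 0.26 in DEX (SE 0.0594, adjusted p = 0.00377). TNF minus CI was -0.63 (adjusted p = 3.55e-06). The second probe set of Slc25a15, at a mean intensity of 133.8, gave 0.25 in CI, -0.25 in TNF and -0.22 in DEX. It passed in none of these over all probe sets (adjusted p from 0.0892 to 0.171). On the brightest probe set the rise in CI did not pass without CI replicate 1 (0.19) or without control replicate 1 (0.23, adjusted p = 0.0591).

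Slc25a29, a carrier of basic amino acids such as arginine and lysine, was measured at 852.6, 859.9 and 824.9 in control, 1257 and 1006 in CI, 685.5, 638.3 and 764.7 in TNF and 1048, 1239 and 1066 in DEX. CI and DEX arrays were all above and TNF arrays all below control. It rose by 0.40 in CI (SE 0.0973, adjusted p = 0.00977) and by 0.39 in DEX (SE 0.087, adjusted p = 0.00322), and fell by 0.28 in TNF (SE 0.087, adjusted p = 0.0293). The direct difference between TNF and DEX was the largest of any member that passed there (TNF minus DEX -0.67, SE 0.087, adjusted p = 2.18e-05), and TNF minus CI was -0.68. All 5 probe sets showed these directions: 0.33 to 0.43 in CI, -0.33 to -0.13 in TNF and 0.39 to 0.48 in DEX. In the fit of all probe sets each passed in CI and in DEX. In TNF those at mean intensities of 851.6 and 553.5 passed (adjusted p = 0.0247 and 0.000633). The others, the brightest among them, did not pass there (adjusted p from 0.0568 to 0.322). The CI call was lost without CI replicate 1 (0.25, adjusted p = 0.193). The TNF call was lost without control replicate 1 (adjusted p = 0.0672), control replicate 2 (0.0894), control replicate 3 (0.052), TNF replicate 1 (0.0802) or TNF replicate 2 (0.124).

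Slc25a44, which carries branched-chain amino acids into mitochondria, lay at 1294, 1301 and 1483 in control, 1456 and 1433 in CI, 1099, 1098 and 1161 in TNF and 1162, 1232 and 1207 in DEX. Control replicate 3 was the highest of all arrays, and the TNF and DEX arrays were all under the lowest control array. It fell in TNF (-0.27, SE 0.0598, adjusted p = 0.00358) and in DEX (-0.175, SE 0.0598, adjusted p = 0.0409). In DEX it did not pass without control replicate 3 (-0.11, adjusted p = 0.203), DEX replicate 1 (0.126), DEX replicate 3 (0.0765), TNF replicate 1 (0.052) or TNF replicate 2 (0.0529), nor with only the groups compared (0.0756). Its other probe sets, at mean intensities of 657.7 and 367.9, gave -0.38 and -0.15 in TNF and -0.30 and -0.07 in DEX, none passing. The mean of its probe sets passed in TNF (-0.27, adjusted p = 0.00687) and in DEX (-0.18, adjusted p = 0.044). Slc25a38, the glycine carrier needed for haem synthesis, rose in CI (0.24, SE 0.0582, adjusted p = 0.00927), from 629.8 ± 15.7 to 749.1 ± 28.5, and stood at -0.01 in TNF and -0.03 in DEX. Its rise was lost without CI replicate 2 (0.21, adjusted p = 0.0913).

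Of 8 amino acid carriers tested, 3 rose in CI and 0 fell, 1 rose and 4 fell in TNF, and 2 rose and 4 fell in DEX. Of all tested genes 8.38% rose and 8.88% fell in CI, 13.9% and 11.2% in TNF and 14% and 13.6% in DEX, so the 1 that rose in TNF is about the background share. At an unadjusted p under 0.05 the number lower in CI was likewise 0 of 8.

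Carriers of cofactors, nucleotides and glutathione followed. Of 10 tested, 4 rose and 0 fell in DEX (median 0.16), 0 rose and 3 fell in TNF (median -0.05), and 1 rose and 2 fell in CI (median -0.03). The shares of all tested genes were 14% higher and 13.6% lower in DEX, 13.9% and 11.2% in TNF and 8.38% and 8.88% in CI, and at such shares a count of 0 in 10 is near the background. At an unadjusted p under 0.05 the number lower in DEX and the number higher in TNF were also 0 of 10. Slc25a26, which imports the methyl donor S-adenosylmethionine, lay at 514, 462.4 and 515.8 in control, 470.5 and 450.5 in CI, 523.7, 542.2 and 539.6 in TNF and 792.6, 740.6 and 797.4 in DEX. The DEX arrays stood apart from all others. It rose by 0.63 in DEX (SE 0.057, adjusted p = 7.14e-07), was at 0.10 in TNF (adjusted p = 0.201) and -0.11 in CI (adjusted p = 0.303), and TNF minus DEX was -0.52 (adjusted p = 3.54e-06). The second probe set, at a mean intensity of 132.4, gave 0.58 in DEX and also passed.

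Slc25a42, the coenzyme A carrier, lay at 774, 669.4 and 771.7 in control, 540.7 and 790 in CI, 723.9, 807.7 and 691.7 in TNF and 998, 847.2 and 1015 in DEX. The CI arrays were far apart, on both sides of control, while the DEX arrays were all above control. It rose by 0.36 in DEX (SE 0.113, adjusted p = 0.0276), and not beyond the threshold without control replicate 2 (0.29, adjusted p = 0.121), DEX replicate 1 (0.0873) or DEX replicate 3 (0.0942). The average of its probe sets gave 0.21 in DEX (adjusted p = 0.0442). Slc25a17, a carrier of coenzyme A and related nucleotides in peroxisomes, rose by 0.30 in DEX (adjusted p = 0.0158), and this was lost without control replicate 1 (0.0628), without DEX replicate 2 (0.0749) or with the mean of its 2 probe sets (0.06, adjusted p = 0.488). Slc25a51, the mitochondrial NAD carrier, rose from 2849 ± 52.5 to 3312 ± 111 in DEX (0.22, adjusted p = 0.00595). Its second probe set, at a mean intensity of 1076, gave -0.05 in DEX, and the mean of its 3 probe sets did not pass (0.09, adjusted p = 0.198). That second probe set rose in CI (0.24, adjusted p = 0.0304 over all probe sets) and fell in TNF (-0.20, adjusted p = 0.0327). The brightest probe set gave -0.10 in both and did not pass.

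Slc25a16, a carrier that has been linked to coenzyme A, lay at 1038, 1028 and 1021 in control, 930 and 760.9 in CI, 853.6, 846.7 and 859.2 in TNF and 1053, 1134 and 1097 in DEX. CI and TNF arrays were below control and DEX arrays just above it. It fell by 0.29 in CI (SE 0.0727, adjusted p = 0.0135) and by 0.27 in TNF (SE 0.065, adjusted p = 0.00761), and was at 0.09 in DEX (adjusted p = 0.358). TNF minus DEX was -0.35 (adjusted p = 0.000587). The CI call was lost without CI replicate 2 (-0.14, adjusted p = 0.23).

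The pyrimidine nucleotide carriers moved in opposite directions in CI. Slc25a33, known as a carrier induced by insulin and IGF signalling, lay at 1141, 1089 and 1186 in control, 1319 and 1453 in CI, 977.6, 963.9 and 1041 in TNF and 1084, 1191 and 1078 in DEX. CI arrays were above, TNF arrays below and DEX arrays mixed with control. It rose by 0.28 in CI (SE 0.0687, adjusted p = 0.0113) and fell by 0.19 in TNF (SE 0.0614, adjusted p = 0.032). The first call was lost without CI replicate 2 (0.21, adjusted p = 0.134). The TNF call was lost without control replicate 1 (0.0681), control replicate 3 (0.122), TNF replicate 1 (0.095) or TNF replicate 2 (0.107), and with each array centred on its median (0.0568). Slc25a36 fell in CI (-0.24, adjusted p = 0.0226), from 1387 ± 94.3 to 1174 ± 50.2. Omitting either CI array (adjusted p = 0.0554 without CI replicate 1 and 0.169 without CI replicate 2), or control replicate 1 (0.0856) or 2 (0.08), ended the call, and its mean over 3 probe sets was -0.01 (adjusted p = 0.917).

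The glutathione carrier Slc25a39 fell in TNF (-0.22, SE 0.0517, adjusted p = 0.00543), from 9960 ± 459 to 8525 ± 147. All of its 5 probe sets were below 0 there (-0.27 to -0.12). In the fit of all probe sets only the brightest, also of the _x_at type, passed in TNF (the others at adjusted p from 0.0578 to 0.367). In DEX the probe set at a mean intensity of 385 passed (0.18, adjusted p = 0.034), where the brightest gave -0.08. The paralog of Slc25a39, Slc25a40, was at -0.08 in TNF, 0.07 in DEX and 0.23 in CI (adjusted p = 0.0547). Slc25a32, a carrier of folate and flavin, lay between -0.02 and 0.16 and passed in none of the comparisons with control.

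Of the mitoferrins, which import iron for haem and iron-sulfur clusters, Slc25a37 lay at 171.6, 167.4 and 136.7 in control, 169.8 and 158.1 in CI, 244.4, 255.7 and 268.3 in TNF and 217.6, 153.5 and 185.2 in DEX. The TNF arrays were above all others, and the DEX arrays spread across control. It rose by 0.65 in TNF (SE 0.1, adjusted p = 0.000231), was at 0.20 in DEX (adjusted p = 0.158) and 0.05 in CI (adjusted p = 0.828), and TNF exceeded DEX by 0.45 (adjusted p = 0.00283). Slc25a28, the more widely expressed mitoferrin, was at -0.08 in TNF, 0.11 in DEX and -0.04 in CI and passed in none.

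Among the carriers related to uncoupling proteins, Slc25a30 rose in DEX (0.34, SE 0.0848, adjusted p = 0.00722), from 370.5 ± 30.8 to 474.3 ± 59.6, and was at 0.22 in TNF on its brightest probe set (adjusted p = 0.075). Its next 2 probe sets, at mean intensities of 338.7 and 132.3, gave 0.53 and 0.48 in TNF and 0.67 and 0.61 in DEX, and passed over all probe sets in both (adjusted p from 4.3e-05 to 0.00315). Slc25a14 rose in CI (0.21, adjusted p = 0.0387), from 325.9 ± 16.1 to 380.2 ± 18.6. That call did not pass without CI replicate 1 (adjusted p = 0.281), CI replicate 2 (0.0608), control replicate 1 (0.131), control replicate 3 (0.0755) or TNF replicate 2 (0.0527), or with only the groups compared (0.0511). Slc25a27, a carrier best known from brain, lay at 115.1 ± 13 in control and between -0.04 and 0.11 in the 3 comparisons, none passing.

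Slc25a35, whose transported substrate is little characterised, had the largest decrease of any member. It lay at 490.2, 467.3 and 472.8 in control, 566.1 and 483.8 in CI, 365.7, 385.6 and 371.3 in TNF and 252.7, 251.8 and 236 in DEX. All TNF arrays were below control and all DEX arrays below TNF. In DEX its mean fell by 48.2%, a log2 fold change of -0.91 (SE 0.0609, adjusted p = 2.51e-08), and in TNF by 0.34 (SE 0.0609, adjusted p = 0.000862). TNF exceeded DEX by 0.57 (adjusted p = 2.91e-06), and DEX minus CI was -1.04 (adjusted p = 1.56e-08).

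The related carrier Slc25a34 lay at 151.9, 170.6 and 169.8 in control, 224.1 and 189.4 in CI, 152.7, 145 and 143.5 in TNF and 192.4, 203.9 and 209.1 in DEX. CI and DEX arrays were above control. It rose by 0.30 in CI (SE 0.0743, adjusted p = 0.0109) and by 0.28 in DEX (SE 0.0664, adjusted p = 0.00576), and was at -0.14 in TNF (adjusted p = 0.135). Slc25a34 and Slc25a35 thus lay on opposite sides of control in DEX. The CI call was lost without CI replicate 1 (0.19, adjusted p = 0.198).

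Of the other little-characterised members, Slc25a53 fell in TNF (-0.30, SE 0.0529, adjusted p = 0.000686), from 192.7 ± 5.05 to 153.5 ± 7.47. Its second probe set gave 0.25 there, and the mean of both did not pass (-0.03, adjusted p = 0.741). That second probe set, at a mean intensity of 160.2, passed in CI (-0.43, adjusted p = 0.0304 over all probe sets), where the brightest gave -0.06. Slc25a46, an outer membrane protein of this family with a role in mitochondrial shape, fell in TNF from 1848 ± 66.1 to 1608 ± 75.5 (-0.20, adjusted p = 0.0441) and was at 0.18 in DEX (adjusted p = 0.0596); TNF minus DEX was -0.38 (adjusted p = 0.000447). Its TNF call was lost under 10 of 20 alternatives, among them the omission of each control or TNF array (adjusted p from 0.0547 without control replicate 3 to 0.16 without TNF replicate 2). Slc25a45, Slc25a47 and Slc25a48 passed in no comparison with control, with values between -0.17 and 0.15.

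**Figure D4:**
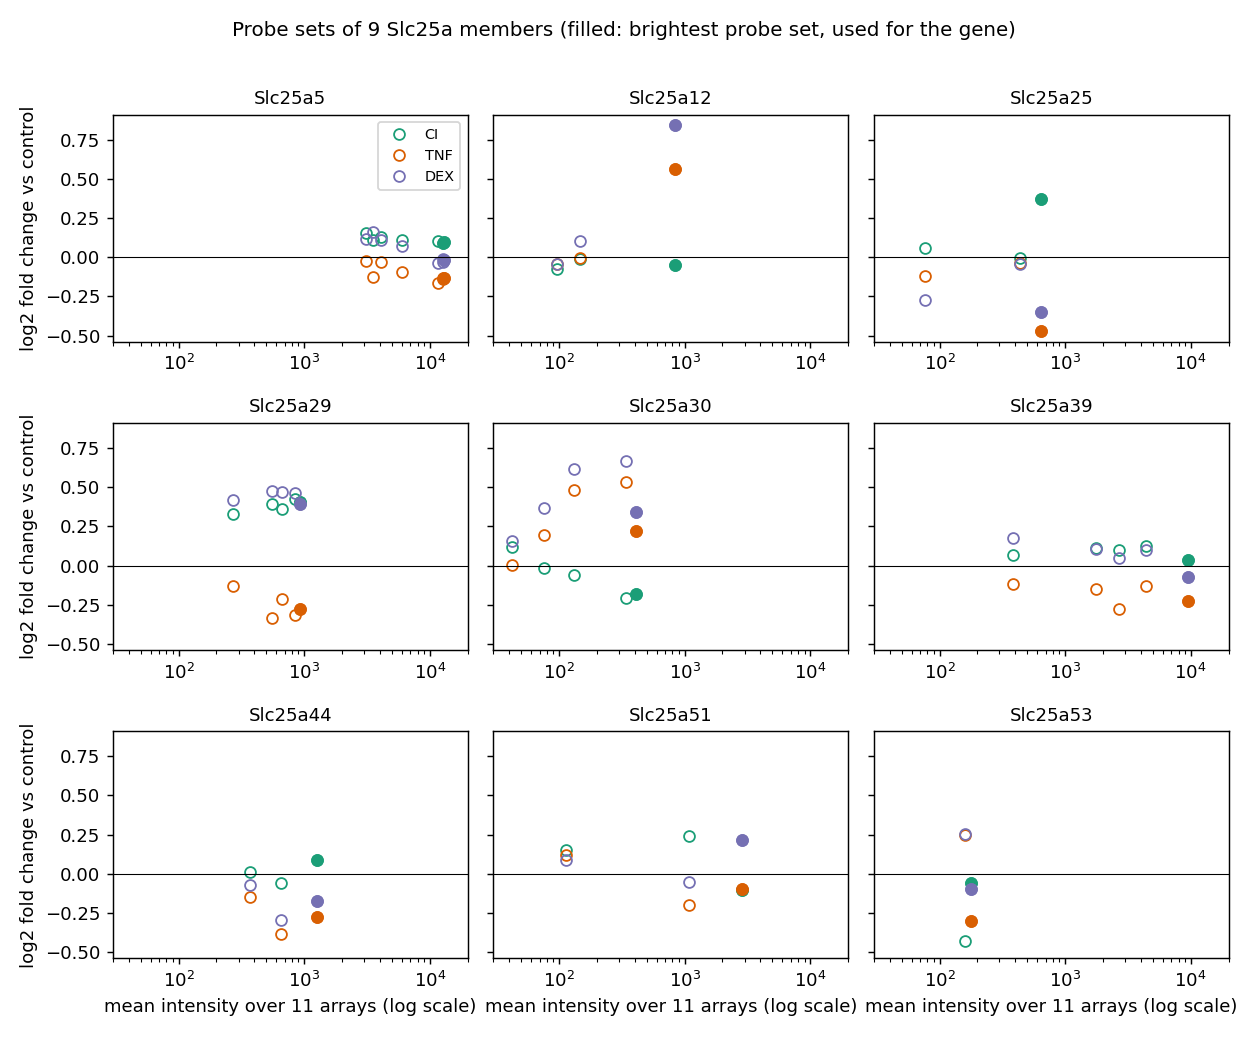
Log2 fold change against control (vertical) of every single-symbol probe set of 9 Slc25a members, plotted at its mean intensity over 11 arrays (horizontal, log scale); filled dots are the brightest probe sets used for the genes. The probe sets of Slc25a29 lie together, while in TNF and DEX the brightest one of Slc25a12 stands apart from its dimmer ones, and in TNF those of Slc25a53 lie on both sides of 0.

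The treatments were also set against each other, in 3 comparisons that hold no control array but share treated arrays. In TNF against CI 23 members passed (60.5%, against 36.2% of all genes): 17 were lower (44.7%, where 17.3% of all genes were) and 6 higher (15.8%, against 18.9%). In TNF against DEX 20 passed (52.6%, against 36.1%): 16 were lower (42.1%, against 18%) and 4 higher (10.5%, against 18.2%): Slc25a35, Slc25a37, Slc25a24 and Slc25a13. In DEX against CI 18 passed (47.4%, against 34%): 10 were higher (26.3%, against 17.1%) and 8 lower (21.1%, against 16.9%). The largest differences in TNF against CI were those of Slc25a24 (0.90), Slc25a25 (-0.85), Slc25a29 (-0.68) and Slc25a15 (-0.63). For DEX against CI they were those of Slc25a35 (-1.04), Slc25a12 (0.90), Slc25a26 (0.73) and Slc25a25 (-0.73). For TNF against DEX they were Slc25a29 (-0.67), Slc25a35 (0.57), Slc25a26 (-0.52) and Slc25a37 (0.45). Slc25a3 (-0.21, adjusted p = 0.00704) and Slc25a5 (-0.23, adjusted p = 0.00607) were lower in TNF than in CI. Neither passed against control on its brightest probe set. Slc25a4 passed in none of these on its brightest probe set (adjusted p from 0.398 to 0.913). A dimmer one, at a mean intensity of 8337, passed in TNF against DEX (-0.15, adjusted p = 0.0255 over all probe sets), and its other probe sets did not pass.

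Genes that work beside the carriers were looked at for context. Of 15 genes for the import of proteins, carriers among them, into mitochondria 3 rose and 0 fell in CI (Timm9 by 0.43, Tomm40 by 0.42 and Timm8a1 by 0.48). In TNF 0 rose and 4 fell, and in DEX 4 rose and 1 fell. Of all tested genes 8.38% rose and 8.88% fell in CI, 13.9% and 11.2% in TNF and 14% and 13.6% in DEX. In TNF the smallest adjusted p-values were those of Timm44 (-0.22, 0.00804), Tomm40 (-0.23, 0.0127) and Timm9 (-0.19, 0.0222). Those of DEX were Timm10 (0.28, 0.00483), which chaperones carriers between the membranes, Agk (0.20, 0.0104) and Timm10b (0.23, 0.0198), while Timm22, the channel that inserts carriers, fell (-0.19, 0.0405). At an unadjusted p under 0.05 the genes lower in CI and those higher in TNF were still 0 of 15.

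Of 4 further members of the family under other names, Mtch2 fell (-0.22, adjusted p = 0.00918), Ucp1 fell (-0.16, 0.0499, at an intensity near the dim limit) and Mtch1 rose (0.27, 0.0305) in TNF, Ucp3 fell in CI (-0.31, 0.0122) and none passed in DEX (adjusted p from 0.165 to 0.93). Mpc1, a subunit of the mitochondrial pyruvate carrier, fell in TNF (-0.27, adjusted p = 0.00148), and the outer membrane channel gene Vdac3 rose in CI (0.20, 0.034); of the 4 genes for pyruvate carriers and outer membrane channels none passed in DEX (adjusted p from 0.163 to 0.981). In DEX no gene of either list of 4 had an unadjusted p under 0.05 (0 of 4 in each). Of 14 other inner membrane transporters 2 rose and 3 fell in CI, 2 rose and 5 fell in TNF and 2 rose and 3 fell in DEX, beside the same shares of all genes; the 2 that rose in TNF and in DEX are close to those shares. The sideroflexins, some of which carry serine, were among them. Sfxn1 fell in TNF (-0.33, 0.00481) and rose in DEX (0.55, 4.78e-05), and Sfxn3 rose in both (0.69, 1.52e-06, and 0.38, 0.000285). Sfxn2 rose in CI (0.71, 4.73e-05) and fell in TNF (-0.29, 0.00914) and DEX (-0.40, 0.000739), and Sfxn4 (-0.49, 0.000193) and Sfxn5 (-0.52, 0.000119) fell in DEX. Ghitm (-0.33, 0.000265) and Letm1 (-0.37, 0.000321) fell in TNF, and in CI Letm1 rose (0.22, 0.0335). Nnt, the transhydrogenase that makes matrix NADPH, fell in CI (-0.33, 0.0156) and rose in TNF (0.29, 0.0143).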

How the data were processed

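Gene expression was measured on 11 Affymetrix arrays of 3T3-L1 adipocytes, and groups and replicate numbers were read from the sample titles. Per the labels, biotin-labelled cRNA was hybridised. The authors deposited linear intensity values for 45101 probe sets; the sources used here do not say how background, summarisation and scaling were handled. No further normalization was applied, since the quartiles of all arrays lay within 0.0763 of each other on the log2 scale. The number of arrays limits the precision.

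The authors' intensities were transformed here to log2(intensity + 16). Of all probe sets 64 were array controls, 34945 carry a single gene symbol in the platform annotation, 932 carry several and 9160 are absent from it. The brightest probe set represented each of 18193 genes, and 15623 genes with a mean of at least 51.74 (the 25th percentile of probe sets) were fitted with limma 3.58.1 in R 4.3.3 with all 11 arrays and a coefficient for each group (7 residual and 7.59 prior degrees of freedom), two-sided, with Benjamini-Hochberg adjustment. Other probe sets were fitted together with all probe sets. The fit was checked on simulated data. Members and gene lists were chosen with earlier results of these data known. Every array value is given for members that passed in at least 2 comparisons with control and for the 6 largest differences that passed in each; up to 3 genes with the smallest adjusted p per comparison are named from other lists, and the 4 largest differences between treatments. The other members were named in addition, as were, chosen after their values were seen, Sfxn1, Sfxn2 and Nnt in TNF and Sfxn2, Sfxn3 and Timm22 in DEX. Promoter sequences came from RefSeq (GRCm38.p6), of which all windows served as the background. Alternatives were the pseudocount, the dim filter, centring, quantile normalization, the mean of all probe sets, fits of only the groups compared, a replicate block and leaving out each array.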

Additional observations from a re-analysis of the deposited data

How the results depend on the processing

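Every member that passed against control kept its direction under all 20 alternatives. Of the calls against control, 13 of 17 in TNF, 11 of 16 in DEX and 0 of 10 in CI stayed past the threshold under all of them, and so did the 4 named differences of each pair of treatments. The number of members that passed ranged, with arrays left out in turn, from 4 (without CI replicate 1) to 11 in CI, 14 to 20 in TNF and 14 to 17 in DEX, and from 17 to 25 in TNF against CI, 15 to 19 in DEX against CI and 15 to 21 in TNF against DEX. A CI group of 1 array borrows its spread from the remaining groups in these fits. The other settings gave 9 to 12 members in CI, 15 to 20 in TNF and 16 to 18 in DEX, all within 1.5 times the main counts.

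With the replicate number as a block, 10 members passed in CI, 17 in TNF and 16 in DEX, as without it. Deviations from group means correlated from -0.287 to 0.341 in 15 pairs of the same number and from -0.347 to 0.287 in 30 others. These ranges overlap, so they cannot decide whether arrays of the same number belong together. The deviations of the CI arrays mirror each other, so their correlations with any other array differ only in sign. Of the tested members Slc25a27 and Slc25a47 were the dimmest, and fold changes are most compressed at low intensity.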
